A study of Homo sapiens with 4 samples.

Results

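The peaks described here are those that the deposited list of HuR-bound sites places in cyclins, cyclin-dependent kinases (CDKs), CDK inhibitors and genes with a cell division cycle symbol. A peak is a 347 bp stretch where immunoprecipitated RNA piled up on the genome. Members were chosen by symbol alone, although earlier results of these data were known when the choice was made. The host gene of a peak is the gene of the RefSeq transcript named in its annotation, and the symbol had to begin with CCN, a letter and a digit, or with CDK, CDKN, CDC or CDCA and a digit. Symbols beginning with CDC42, a small GTPase and its partners, were left out. This gave 100 of the 14149 peaks, in 24 of the 3313 genes with a peak.

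The RNA came from MDA-MB-231, an established line of human triple-negative breast cancer cells, grown without a stated treatment. RNA was immunoprecipitated from lysate with a mouse antibody against HuR in 2 samples and with mouse IgG, the antibody control, in 2 samples. All 4 were sequenced without selection for poly(A) tails. The deposited table is 1 list for the whole series, with a single score per peak and no value for a sample or for IgG, so neither the spread between replicates nor HuR over IgG could be measured at any gene.

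HuR, the product of ELAVL1, binds AU-rich and U-rich stretches of RNA, often in the 3′-UTR, and is known for stabilising mRNAs with short lives. Passage through the cell cycle is driven by CDKs, which are switched on by cyclins that come and go and are held back by inhibitors. Many mRNAs of this machinery are made and destroyed within a cycle, which is why they are often studied as targets of RNA-binding proteins.

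A shared symbol is not a shared role. CDK9 with its partner cyclin T1, CDK12 and CDK13 phosphorylate RNA polymerase II, and CDK8 and CDK19 are the kinases of the Mediator complex. CDC73 is a subunit of the PAF1 transcription elongation complex, and CDC5L and CDC40 are splicing factors. CDKN2AIPNL is a relative of a protein that interacts with the product of CDKN2A and is not itself a CDK inhibitor, although its symbol places it among them.

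The sequences under the 3′-UTR peaks with scores from 551.8 down to 74.4 are shown, with and without AU-rich pentamers, so that the letters under the highest scores can be read. Those under the lower 3′-UTR peaks of CDC5L, CDC37L1 and CCNE2 are not shown. Each is the 30-base stretch with the most A and T within the overlap of the peak and the 3′-UTR, read on the strand of the gene from the hg38 reference and written as DNA, with the pentamer ATTTA in capitals. The coordinates are given before each sequence, in order of peak score, and where 2 peaks have the same stretch it is printed once.
CCND1, chr11:69652658-69652687: gtttttaaacactaaaatatataATTTAta
CCND1, chr11:69652251-69652280: ttggtttgtgttcttcttcatattctaaaa
CDK2AP1, chr12:123261491-123261520: ttttttttgttttttaagcattgATTTAaa
CDCA4, chr14:105009935-105009964: tttattaaaaaattatccagcaaacaaaat
CDCA4, chr14:105010441-105010470: gattttATTTAtgtctATTTAtatgtaaat
CDC27, chr17:47118621-47118650: aagtttattttacagaaattaaattaagta
CDC73, chr1:193251284-193251313: atttctttATTTAcaaatgattacATTTAa
CDC73, chr1:193252709-193252738: atgtaattaatttcattccattatttttta
CDKN2AIPNL, chr5:134402412-134402441: tttttaaacgtcagaatttttgtttaaaat
CDKN2AIPNL, chr5:134402496-134402525: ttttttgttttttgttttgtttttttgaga
CDK14, chr7:91208851-91208880: aaggaattATTTActgattggttttaaaga
CDK17, chr12:96279791-96279820: ttttactgctgcattttttgtttttaaaat
CDK14, chr7:91208687-91208716: taaagcttttctataatcaagctcaataca
The CCND1 stretch of the + peak held 27 A or T of 30 and that of the − peak 22, with ATTTA only in the former. A stretch of CDC73 and a stretch of CDCA4 held ATTTA 2 times, and the other stretch of each held 0, as did the stretches of CDC27, CDKN2AIPNL and CDK17. These zeros belong to the 30 bases alone. The whole peaks over the other CDC73 stretch held ATTTA 4 times each, that of CDK17 2 times and that of CDC27 1 time. Both CDKN2AIPNL peaks and the CDCA4 peak of 253.0 held 0. Because the rule picks the most AT-rich stretch of each overlap, the richness of these letters is not a finding.

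Cell division genes were present in the list more often than protein-coding genes at large. Of 85 protein-coding members in the annotation, 23 were listed with a peak, which is 27.1% (18.8 to 37.3%, the Wilson 95% interval). The same share was 15.4% over all 20056 protein-coding genes. The remaining member is CDC37L1-DT, a long non-coding RNA beside CDC37L1. A peak annotated in a 3′-UTR was listed for 10 of the 85 members, or 11.8% (6.52 to 20.3%), against 6.09% of all genes, and a peak at or above the median score for 14, or 16.5% (10.1 to 25.8%), against 7.78%. Genes are not replicates of the experiment, so these intervals cover counting error only and no test was made of the difference. Expression was not measured here, so the comparison was not limited to genes expressed in these cells. The higher share is therefore not read as preferred binding.

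The subgroups had shares from 20% to 32.1%, in groups too small to be ranked or called alike. A peak was listed for 4 of 18 cyclins, 9 of 28 CDKs and their partners, 2 of 10 genes with an inhibitor symbol, 6 of 22 CDC genes and 2 of 7 CDCA genes, and the intervals of all 5 shares overlap. Long transcripts were listed more often among members and among all genes. Of members with less than 2000 bp of exon, 2 of 26 had a peak, or 7.69%, against 3.29% of all genes of that length. At 4000 bp or more it was 12 of 19, or 63.2% (41.0 to 80.9%), against 29.8%. The length classes were added after the data were seen.

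Peak scores were close to those of the list as a whole. The median score, which is the peak caller's own value with a scale the authors do not state, was 37.3 over the 100 peaks and 34 over all peaks. The best peak of a gene had a median score of 37.85 over the 24 genes, from 10.0 in CDK19 to 551.8 in CCND1, against 34 over all 3313 genes, and 14 of the 24 lay above the latter. CCND1, CDC73, CDCA4 and CDK2AP1 together held 60.3% of the summed score of all 100 peaks.

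**Figure D1:**
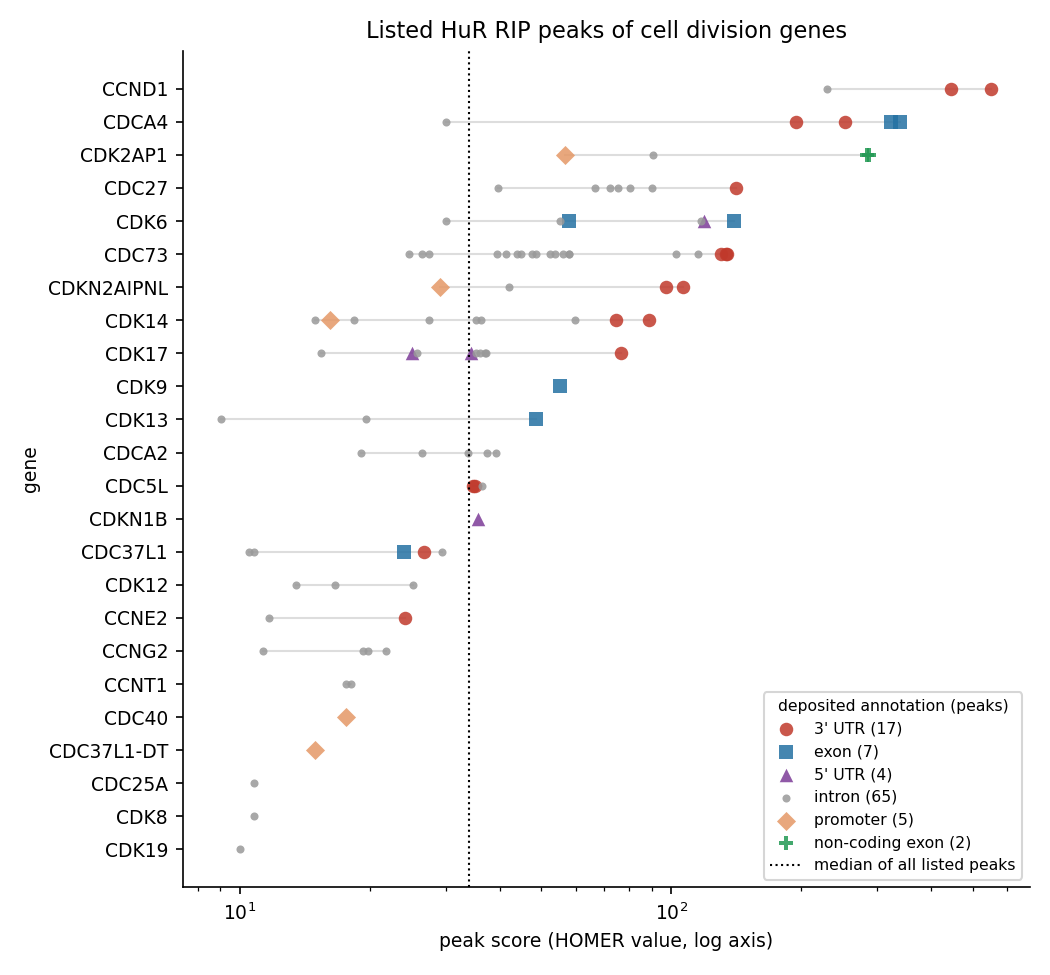
Score of each of the 100 peaks on a log axis, by gene, with genes ordered by their best peak and symbols showing the deposited annotation of the peak centre. The dotted line is the median of all listed peaks, 34. CCND1 leads with 551.8 and 445.9 in its 3′-UTR, and most intronic peaks lie further left than the 3′-UTR peak of the same gene.

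Among the cyclins, CCND1 stood apart. It encodes cyclin D1, which activates CDK4 and CDK6 in G1, and it ranked 108 of 3313 genes by best score. Its 3 peaks scored 551.8 (exact Poisson 95% interval 529 to 575), 445.9 (426 to 467) and 229.1 (215 to 244), and none of these intervals meet. The first pair lay in the 3′-UTR of the last exon on opposite strands, at chr11:69652348-69652694 on the + strand and chr11:69652176-69652522 on the − strand, and the third lay in an intron beside exon 3.

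The 3′-UTR of CCND1 is 3192 bp long and holds 7 ATTTA pentamers. The + peak reached from base 1065 to base 1411 of it and contained the pentamer at base 1398, the one shown in capitals above. The next 4, at bases 1423, 1457, 1481 and 1546, lay just beyond its 3′ edge. The − peak, from base 893 to base 1239, contained 0. This contrast depended on where the peaks were placed. In windows moved 173 bp against the strand of each peak, the + peak held 0 and the − peak 1.

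The other listed cyclins scored below the median of all peaks. CCNE2, which encodes cyclin E2, a partner of CDK2 at the start of S phase, had peaks of 24.2 in the 3′-UTR and 11.7 in an intron, and the first also overlapped an exon of INTS8, so its reads cannot be assigned to CCNE2 alone. CCNG2, an atypical cyclin linked with cell cycle arrest, had 4 intronic peaks between 11.3 and 21.8. CCNT1, the cyclin T1 of CDK9, had intronic peaks of 18.1 and 17.6. None of the classical cyclins CCNA1, CCNA2, CCNB1, CCNB2, CCNB3, CCND2, CCND3 and CCNE1 had a listed peak.

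Among the CDKs that drive the cycle, CDK6 was listed and CDK1, CDK2 and CDK4 were not. CDK6 is a partner of cyclin D in G1 and ranked 528. Its 6 peaks scored 139.5 in coding exon 2, 118.9 in the 5′-UTR part of the same exon, 117.2 beside exon 4, 58.0 and 55.1 at exon 5 and 30.1 beside exon 6. Its 3′-UTR is 10219 bp long with 26 ATTTA pentamers, the greatest length and count of the 85 members, and had 0 listed peaks. By density it held 2.54 pentamers per kb, against 6.09 in CDC73 and 2.19 in CCND1.

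CDK2AP1, a small CDK2-associated protein that restrains growth, led the kinase group by score. Its peaks scored 287.8 (272 to 305), 283.9 (268 to 301), 90.8 and 56.8, and the gene ranked 249. The leading peaks, on the − and the + strand with starts 52 bp apart, had intervals that overlap. The deposited annotation puts them in a non-coding exon, but in the canonical transcript they lie in the 760 bp 3′-UTR, and the CDK2AP1 stretch shown above lies under both of them.

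CDK14 and CDK17 are CDKs outside the core cycle, of the PFTAIRE and PCTAIRE kinases, and each had 9 peaks with the strongest in the 3′-UTR. In CDK14 the 3′-UTR peaks scored 88.6 on the + strand and 74.4 on the − strand, and the other 7 lay between 14.9 and 59.7. In CDK17 the 3′-UTR peak scored 76.6, and the other 8 lay between 15.4 and 37.2.

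The kinases of transcription were weaker. CDK9 had a single peak of 55.1 in its last exon and CDK13 reached 48.5 in its last exon, with 19.6 and 9.05 in introns. CDK12 had intronic peaks of 25.2, 16.6 and 13.5. CDK8 and CDK19, the Mediator kinases, had a single intronic peak each, of 10.8 and 10.0, close to the lowest score of the list, 8.32.

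Of the genes with an inhibitor symbol, CDKN1B and CDKN2AIPNL were listed. CDKN1B encodes p27, which binds and blocks cyclin E with CDK2, and it had a single peak, of 35.7, in its 5′-UTR at chr12:12717599-12717945. CDKN2AIPNL had 3′-UTR peaks of 106.7 and 97.4, with intervals that overlap, and 42.1 in an intron and 29.1 at the promoter. CDKN1A, the gene of p21, and CDKN2A, the gene of p16, had no listed peak.

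Among the CDC genes, CDC73 had the most peaks and CDC27 the strongest. CDC27 is a subunit of the anaphase-promoting complex, the ubiquitin ligase that ends mitosis. Its 3′-UTR peak scored 141.2 (130 to 153), and its 6 intronic peaks scored 90.1, 80.3, 75.4, 72.2, 66.6 and 39.6. The genome holds 11 pseudogenes named after CDC27, and how reads shared with them were counted is not stated, so its values are uncertain.

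CDC73 had 19 peaks beside 12 of its 17 exons. The 3 in the 3′-UTR scored 134.3, 133.9 and 130.7, and the 16 in introns lay between 24.7 and 115.3. Its summed score of 1238.8 was the highest of the members, next to 1226.8 for the 3 peaks of CCND1. The best peaks of CDC27, CDK6 (139.5, 128 to 151) and CDC73 (134.3, 123 to 146) do not differ beyond counting error.

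The other CDC genes were near or below the median. CDC5L had 36.5 in an intron and 35.0 and 34.7 in the 3′-UTR, and CDC37L1, a relative of the HSP90 co-chaperone CDC37, had 5 peaks between 10.5 and 29.4, with 26.7 in the 3′-UTR. CDC25A, a phosphatase that activates CDKs, had a single intronic peak of 10.8. CDC40 and CDC37L1-DT had a single promoter peak each, of 17.6 and 14.9, and these overlapped exons of WASF1 and CDC37L1. CDC20, CDC25B and CDC25C had no listed peak.

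The CDCA genes, named for cell division cycle association, gave the second strongest member. CDCA4, a nuclear regulator of E2F-dependent transcription, ranked 207. Its coding exon 2 had peaks of 338.2 (321 to 357) and 323.0 (306 to 341), on the − and the + strand with intervals that overlap, and its 3′-UTR had 253.0 and 194.3. The + peak of 194.3 contained the double ATTTA of the CDCA4 stretch shown above, and the stronger − peak of 253.0 contained 0. The genome holds 4 pseudogenes named after CDCA4. CDCA2, a chromatin-bound targeting subunit of protein phosphatase 1, had 5 intronic peaks between 19.1 and 39.2.

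**Figure D2:**
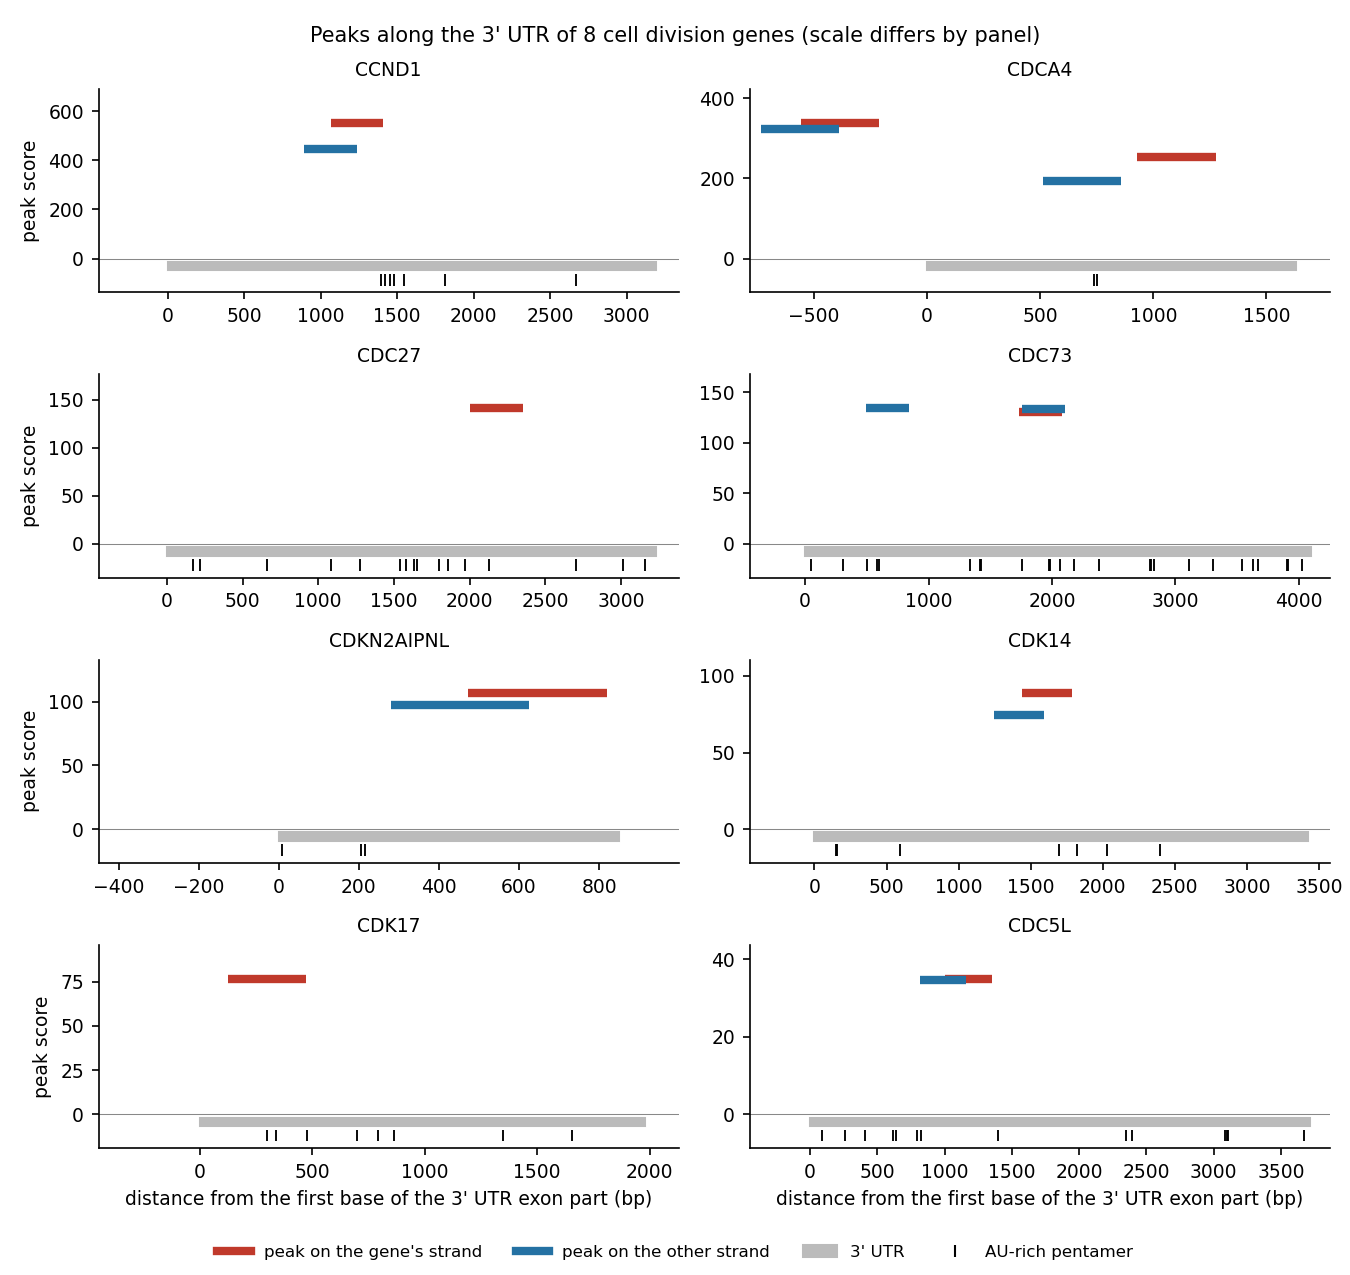
Peaks of 8 members drawn over their 3′-UTR, with distance in bp from the first base of the 3′-UTR exon part on the x axis and peak score on the y axis; red bars are peaks on the strand of the gene, blue bars peaks on the other strand, and ticks mark ATTTA. In CCND1 1 of the 7 pentamers lies in the red peak at 551.8 and 4 just past it, and in CDCA4 the 2 stronger peaks lie upstream of the 3′-UTR.

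Absence from the list is not absence of binding. Whether an unlisted gene, such as CDKN2A or CDKN2B, is present and expressed in these cells was not measured here. The list is a selection by the authors. Of the first 100 peak numbers on each chromosome it holds 44.0%, and which step removed the others is not stated. In all, 62 protein-coding members had 0 listed peaks. The column of nearest genes in the list would add CCNB2, CDC6, CDCA7L and CDK5R1, which are near a peak of another transcript. That column named the host gene for 58 of the 100 member peaks, or 58.0%, and for 58.7% of all peaks.

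The 3′-UTR share of members was near that of the list. The deposited annotation placed 17 of 100 peaks in a 3′-UTR, or 17.0% (10.9 to 25.5%), against 14.6% of all peaks, and 65 in introns, or 65.0%, against 61.9%. Exons held 7 peaks, or 7% (3.43 to 13.7%), against 12.6% of all, promoters held 5, or 5%, against 3.27%, and 5′-UTRs held 4. The 5′-UTR peaks were those of CDKN1B, CDK6 and, as a pair, CDK17, and they made 4% of member peaks (1.57 to 9.84%) against 1.22% of all. Moving each peak 173 bp back against its strand put 48 of the 100 in coding exons, 20 in 3′-UTRs and 21 in introns. Over all peaks with a transcript model the same move gave 53.2%, 18.7% and 20.2%, so the shift is not particular to the members.

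**Figure D3:**
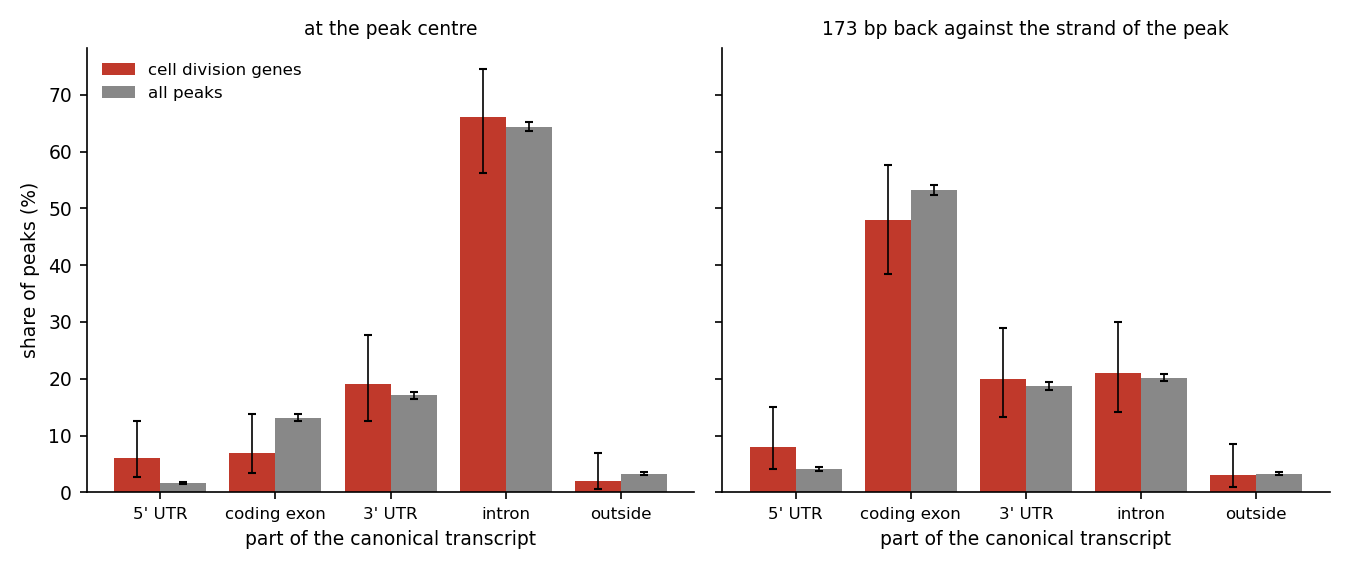
Share of peaks in percent by part of the canonical transcript, for the 100 member peaks (red) and all 13790 peaks with a transcript model (grey), at the peak centre and after a move of 173 bp against the strand; bars show Wilson 95% intervals. Introns fall from 66.0% to 21.0% of member peaks, and coding exons rise from 7% to 48.0%. Over all peaks introns fall from 64.4% to 20.2%, and coding exons rise from 13.1% to 53.2%.

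Peaks in 3′-UTRs scored higher than those in introns. The median score was 106.7 in the 17 3′-UTR peaks, 58.0 in the 7 exon peaks and 35.2 in the 65 intronic peaks, and over the whole list the same medians were 65.45, 44.0 and 28.6. The best peak was annotated in the 3′-UTR for 7 of the 24 genes and in an intron for 9. Of the 10 genes with the highest best scores, 7 had a peak annotated in the 3′-UTR. These counts of genes were not set beside the same shares over all listed genes. As 3′-UTR peaks scored higher over the whole list too, they are not read as particular to the members.

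A long 3′-UTR went with a listed peak, but not always with one inside it. The median 3′-UTR length was 2287 bp in members with a peak and 750.5 bp in members without, against 2502 and 862 bp over all genes. Among the 11 listed members with a 3′-UTR of at least 3000 bp, 5 had a peak annotated in it (CCND1, CDC27, CDC73, CDK14 and CDC5L) and 6 had 0 (CDK6, CDK13, CCNT1, CDK19, CCNG2 and CDK12). Another 4 of that length had no listed peak at all: CCND2 (5344 bp), CCNT2 (4694 bp), CDC14B (3640 bp) and CDKN2B (3084 bp). The same counts over all genes of that length were not made. At any length, 3084 protein-coding genes had a peak and 1222 had one annotated in a 3′-UTR, so the split is not read as particular to the members. Members with a peak also had a median of 8 ATTTA pentamers against 1 in those without, while the density was 2.63 and 1.99 per kb. Over all genes with and without a peak the medians were 7 and 1 pentamers, and 2.69 and 1.23 per kb.

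**Figure D4:**
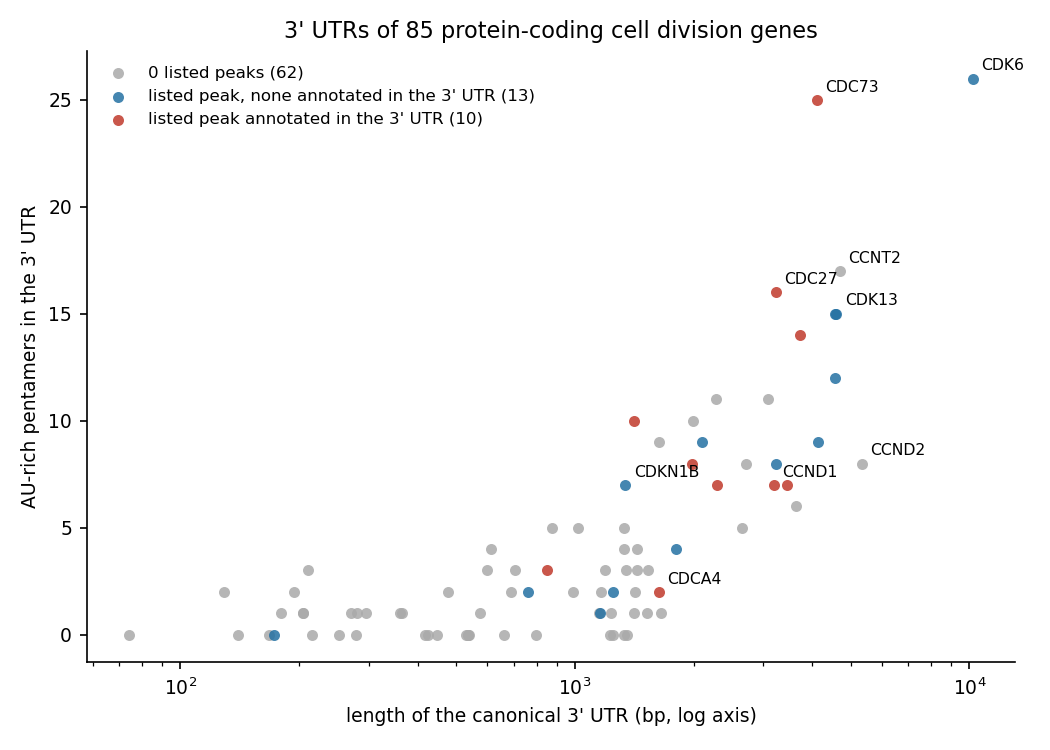
Number of AU-rich pentamers against the length of the canonical 3′-UTR in bp (log axis) for 85 protein-coding members, coloured by whether a peak was listed and whether it was annotated in the 3′-UTR. CDK6 (10219 bp, 26 pentamers) has no 3′-UTR peak, and CDC73 (4103 bp, 25 pentamers) has 3.

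ATTTA was about as frequent under member peaks as under all 3′-UTR peaks. It was searched on the strand of the gene in the whole 347 bp peak and found in 10 of 17 member peaks, or 58.8% (36.0 to 78.4%), against 52.6% of 2059 3′-UTR peaks. The 17 peaks come from 10 genes and include overlapping pairs on opposite strands. The intervals here count each peak as independent and may be too narrow. The longer TATTTAT, which contains ATTTA, was found in 4, or 23.5% (9.56 to 47.3%), against 8.21%. These were a CDCA4 peak, a CDK17 peak and the overlapping pair of CDC73, so they come from 3 genes. TTTTT was found in 14, or 82.4%, against 78.5%. These shares depended on where the peak was placed. In windows moved 173 bp against the strand of each peak, ATTTA was in 7 of 17, or 41.2% (21.6 to 64.0%), against 51.1% of all, and TATTTAT in 2, or 11.8% (3.29 to 34.3%), against 7.58%. A match is a description of the letters, not a binding site.

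Intronic peaks of the members lay close to exons. All 66 that were intronic in the canonical transcript had their centre within 262 bp of an exon, with a median of 108.5 bp, and all were displaced from that exon along the strand of the peak itself. Over the whole list 96.4% of intronic peaks lay within 347 bp of an exon, and 99.6% of these were displaced along their own strand. Of the 66 member peaks, 45 fell in an exon when moved 173 bp back, or 68.2%, against 72.8% of all intronic peaks. The largest sets were those of CDC73, with 16 intronic peaks, and of CDK14, CDK17 and CDC27, with 6 each.

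**Figure D5:**
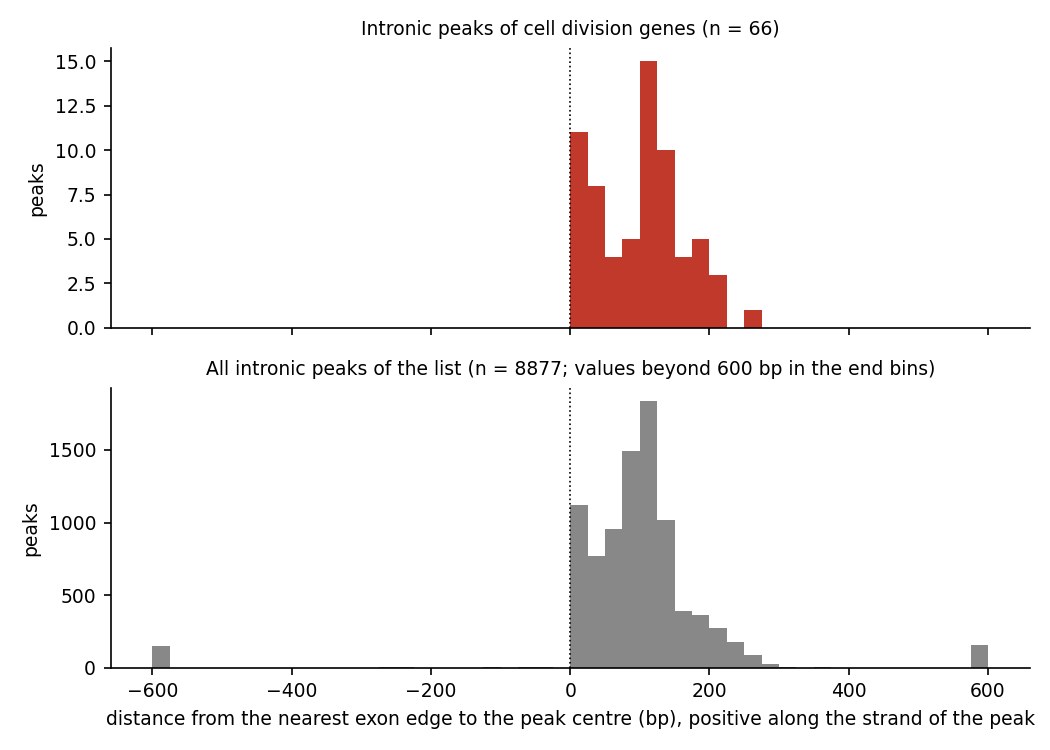
Distance in bp from the nearest exon edge to the centre of intronic peaks, positive along the strand of the peak, in bins of 25 bp, for 66 member peaks (top) and 8877 peaks of the whole list (bottom, values beyond 600 bp gathered in the end bins). Every member peak lies between 1 and 262 bp on the positive side.

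The strand of a peak did not follow the strand of its gene. Of the 100 peaks, 53 were on the strand of the gene (43.3 to 62.5%), against 53.2% of all peaks, and 55 lay on the − strand of the genome. In 21 cases a − peak had a + peak of the same gene within 500 bp, and in 20 of them the + peak lay to the right, the exception being the CDC73 3′-UTR. The median offset was 269 bp and the higher score was a median of 1.19 times the lower, with 16 pairs under 1.5 times. The largest ratio, 3.69, was at the first exon of CDK14. Pairs were not counted over the whole list, so these values are not read as particular to the members.

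Cell division genes outside the symbol rule were also looked up, from lists of 79 genes. Of these 30 had a peak, or 38.0%, with a median best score of 33.75, and 10 had one in the 3′-UTR. Over all protein-coding genes, whether or not expressed in these cells, 15.4% had a peak and 6.09% had one in a 3′-UTR. CCNI, a cyclin with a single-letter symbol, reached 844.0 over 12 peaks and ranked 59, above CCND1. Among the pocket proteins and E2F factors, which gate entry to S phase, 6 of 13 were listed, with 26 peaks and a best score of 263.1 in RB1, 256.0 in TFDP1 and 20 peaks and 229.3 in E2F7. Of the mitotic kinases and checkpoint genes 8 of 18 were listed, led by BUB3 at 160.8, and of the ubiquitin ligases of the cycle 6 of 15, led by SKP2 at 201.6, the F-box protein that targets p27. Of the replication licensing genes 5 of 15 were listed, led by ORC2 at 61.7, and of the cohesin genes 3 of 7, while the CDK subunits CKS1B and CKS2 had none.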

How the data were processed

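Per the labels, RIP-seq was done on 2 HuR and 2 IgG immunoprecipitations of MDA-MB-231 cells. The submitters' processing notes name STAR, HOMER and hg38, with no versions. The authors kept peaks by a criterion of altered abundance whose threshold is not stated, and whether replicates were pooled is not given in the sources used here. For annotation the methods name ANNOVAR, but the file carries a HOMER annotation command in its header. The deposited list has 1 peak score per peak, HOMER's own value, a focus ratio, which is a fraction that describes how reads sit around the peak centre, and a distance to a start site. Library depth is therefore unknown.

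The members and lists were chosen with earlier results of these data known. Gene models were the canonical transcripts of GENCODE 44 on hg38, and coordinates are 1-based. The named genes were, by rule, all members with a peak, with peak values for the 10 with the highest best score and those with a 3′-UTR peak, and classical members without a peak; further genes were named after their values were seen. The planned edgeR test of HuR against IgG needs counts per sample, which the list does not hold, so no test was made. Shares carry Wilson 95% intervals. Of 11121 scores under 100, 99.3% lay on whole multiples of 0.245 within the rounding of 0.05, against 39.3% by chance, and Poisson intervals treat each step as 1 read, which the authors do not state. All intervals cover counting error only, as reads carried no molecular identifiers. Those on shares of peaks also treat each peak as independent, although the 100 peaks merged into 81 loci by overlap. They may therefore be too narrow. Python 3.11.15, numpy 2.4.6, scipy 1.17.1, pandas 2.3.3, pysam 0.24.0 and matplotlib 3.10.9 were used, and functions were tested on simulated data.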

Additional observations from a re-analysis of the deposited data

How the results depend on the processing

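Of 17 alternatives for 5 results, 12 left a share within its interval or a median score within 1.5 times its reported size. The share of members with a peak, 27.1%, was 16.5% when only peaks at or above the median score counted, where all protein-coding genes gave 7.78%. The median best score, 37.85, was 89.3 with scores summed over a gene and 88.6 with exon and UTR peaks only. The share of 3′-UTR peaks with ATTTA, 58.8%, became 23.5% for TATTTAT and 82.4% for TTTTT, which are other motifs. Leaving out CDC73, added after seeing the data, gave 17.3% of peaks in 3′-UTRs and 50% with ATTTA. No paired analysis was possible because no sample has a value of its own, and for the same reason the other normalization, the low-count filter and leaving out replicates were not run. The unknown depth limits what can be said of low-scoring genes such as CDK8, CDK19 and CDC25A.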

Other observations

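Member peaks whose nearest exon was the first had a higher median focus ratio than the rest. The focus ratio, the share of reads placed as a peak of the expected shape would have them, had a median of 0.744 in 13 peaks whose nearest exon was the first, 0.542 in 63 at internal exons and 0.5475 in 24 at the last exon. It reached 0.75 or more in 6, 2 and 0 of these, and at the first exon it ran from 0.352 to 0.899. Among those 13 peaks, the ones of CDC40 and CDC37L1-DT, at 0.885 and 0.744, lay outside the canonical transcript of their host gene. Over the whole list the medians were 0.694, 0.525 and 0.553. These are values of 1 list and no test was made.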
